A study of Danio rerio with 20 samples.

Results

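Zebrafish larvae exposed to citalopram at 10 µg/L were compared with larvae of the group named ERM, with 4 whole-larva RNA-seq libraries on each side. The comparison covered every gene model of the deposited table whose FPKM averaged 1 or more in these 8 libraries, which gave 19458 of 38718 gene models and used 8 of the series' 20 libraries. FPKM is a fragment count scaled to the length of the gene model and to a size factor of the library. In the deposited values these factors equalled median-of-ratios factors over gene models and did not follow total reads. Citalopram 10 µg/L library C had a factor of 0.952 with 14364699 recovered reads, and library A 0.984 with 11784991. Of the models compared, 16237 carried an Ensembl identifier and 3221 did not. The filter admits models near its limit with few reads, and 578 of those compared lay under 1.1 FPKM while 729 of those left out lay between 0.9 and 1 FPKM.

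The study exposed developing zebrafish to citalopram at 10 or 1000 µg/L or to 1 or 100 µg/L of ifosfamide, a cytostatic drug used against cancer. The labels give the tissue of every sample as larvae and name no strain, age, length of exposure or solvent. They do not spell out ERM. The treatment entry of that group gives ERM and a concentration of 1 µg/L, with no drug named beside it, and the group was taken as the reference for both drugs. Each treatment had 5 beakers, of which 4 were sequenced (A to D for citalopram 10 µg/L, and A, B, C and E for ERM), and p-values measure the spread between those libraries.

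Citalopram is a selective serotonin reuptake inhibitor. It blocks the serotonin transporter, which returns released serotonin to the neuron, so that serotonin persists longer outside the cell. In fish, serotonin neurons of the raphe project widely through the brain and spinal cord, and serotonin also acts in the gut, the heart and the stress axis. The drug is cleared by cytochrome P450 enzymes of the liver and reaches surface waters through sewage.

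Markers of whole larvae were present on both sides. Of 50 marker genes of 13 tissues (from muscle, heart, lens and retina to liver, pancreas, intestine, skin and blood), 40 had at least 1 FPKM in all 8 libraries and 45 were above 0 in all 8, while 5 were at 0 in at least 1 library. Of these markers 41 passed the filter and were tested, none with an unadjusted p under 0.05, and 9 lay below it. The ERM libraries held 12049087 to 13897657 recovered reads and the citalopram 10 µg/L libraries 11259514 to 14364699. The correlation of log2(FPKM + 1) was 0.952 to 0.978 between libraries of the same group and 0.946 to 0.974 between libraries of different groups. Library C of citalopram 10 µg/L stood apart in its counts and its length slope, but not in its correlation with ERM. That correlation was 0.974, 0.968 and 0.9725 with ERM A, C and E, the highest of the citalopram libraries, and 0.9465 with ERM B. Its counts differed from those of the other citalopram libraries by 28.1 to 33.3 (chi-square per degree of freedom), against 13.7 to 25.6 among those libraries. This measure grows with depth, and library C was the deepest. Longer genes had less signal in it, with a slope of -0.093 log2 units for each doubling of length where the remaining 7 had -0.033 to 0.014. Its 100 most abundant gene models held the largest share of reads (38.4%), with library D of citalopram next to it at 37.8%.

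The 4 libraries of citalopram 10 µg/L differed from ERM beyond the spread between beakers in 2 gene models. In limma's test on log2(FPKM + 1), 2 of 19458 gene models passed an adjusted p under 0.05 (0.0103%). The gene model named for the RNA polymerase subunit gene polr1d fell, and a gene model on an unplaced scaffold rose. The call of polr1d was lost when the reads of a second model annotated as POLR1D were added (adjusted p = 0.735). Without adjustment, 399 models were higher (2.05%) and 392 lower (2.01%) at a p under 0.05, or 791 in all, where 973 would be past that threshold if no gene differed. In 260 gene models (1.34%) all 4 citalopram libraries lay above all 4 ERM libraries, and in 219 (1.13%) they lay below. The median difference over all models tested was -0.00 on the log2 scale, the middle 95% of models lay between -0.40 and 0.42, and 59 models differed by more than 1 (45 higher and 14 lower). The plot of all gene models shows the called models among them.

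**Figure D1:**
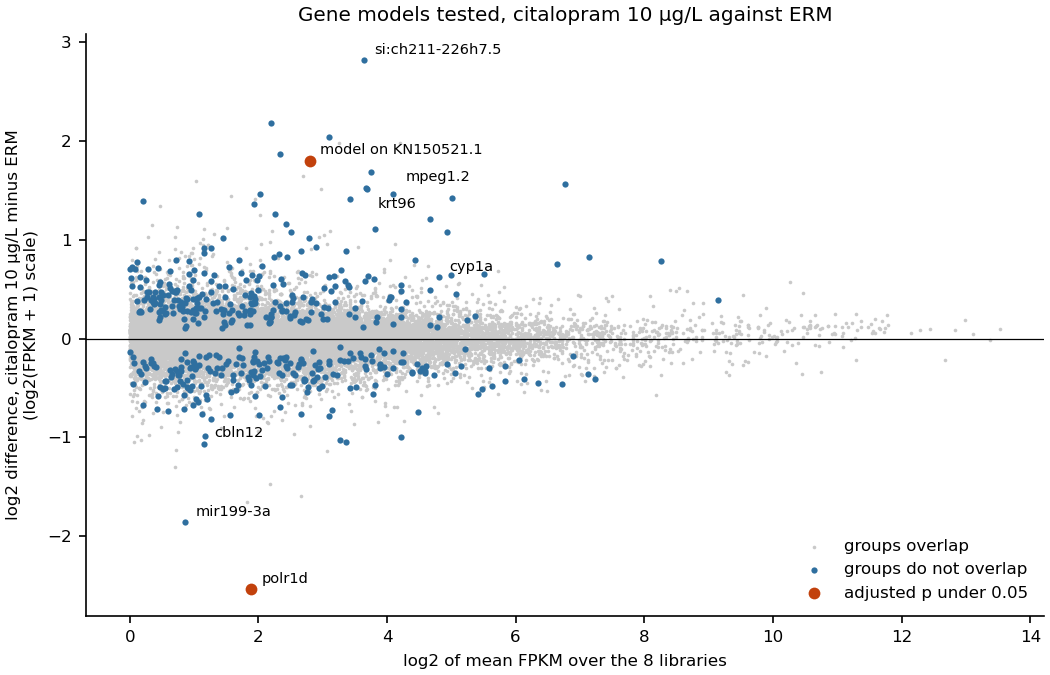
Each point is 1 of 19458 gene models, with the log2 of its mean FPKM over the 8 libraries on the x axis and the log2(FPKM + 1) difference of citalopram 10 µg/L minus ERM on the y axis. Most points lie between -0.40 and 0.42, and the 2 called models, polr1d and the model on an unplaced scaffold, stand at -2.54 and 1.80.

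Polr1d was the gene with the smallest p. It encodes a small subunit shared by RNA polymerases I and III, the enzymes that make ribosomal RNA, transfer RNA and 5S RNA, and loss of the human gene is a cause of Treacher Collins syndrome, a craniofacial disorder. The gene lies on chromosome 14 from 9077314 to 9085349 (GRCz11, minus strand). Its FPKM in ERM libraries A, B, C and E was 6.37, 6.5, 7.18 and 8.02, and in citalopram 10 µg/L libraries A to D it was 0.589, 0.129, 0.608 and 0.235. The groups did not overlap, and every citalopram library was far below every ERM library. The mean fell from 7.02 ± 0.757 (SD, n = 4) to 0.390 ± 0.244 (SD, n = 4), a log2(FPKM + 1) change of -2.54 (SE 0.16, adjusted p = 0.000206). The counts behind it were small, at 48 to 67 recovered reads per ERM library and 1 to 5 per citalopram library. Its citalopram mean lay under the filter of 1 FPKM, which polr1d passed only through its ERM libraries.

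A further gene model bears on polr1d. The table holds a model on an alternate contig whose description names human POLR1D, below the filter at a mean of 0.210 FPKM. It carried 24 reads in citalopram library C and 29 in library D, none in A and B, and 0 to 3 in the ERM libraries. With the reads of both models summed, at the length of polr1d, the FPKM at citalopram 10 µg/L was 0.589, 0.129, 3.53 and 3.65, against 6.37, 6.62, 7.18 and 8.39 in ERM. The groups still did not overlap, but libraries C and D stood closer to ERM, the difference was -1.71 and the call was lost (adjusted p = 0.735, an alternative chosen after seeing the data). Whether the model on the alternate contig holds a transcript of the same gene was not tested.

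All 12 libraries of the other drug groups were also below every ERM library for the named polr1d model. The mean FPKM was 2.503 ± 2.39 (SD, n = 4) for citalopram 1000 µg/L, and the means for ifosfamide were 2.38 ± 1.24 at 1 µg/L and 1.64 ± 2.01 at 100 µg/L. These groups scattered widely. The higher citalopram dose ran from 0.108 to 4.65 and the higher ifosfamide dose from 0.116 to 4.60, while citalopram 10 µg/L stayed within 0.129 to 0.608. The comparisons share the ERM libraries. Set directly against the other drug groups, citalopram 10 µg/L differed by -1.03 (SE 0.48) from citalopram 1000 µg/L, by -1.22 (SE 0.26) from ifosfamide 1 µg/L and by -0.67 (SE 0.41) from ifosfamide 100 µg/L, and none of these differences passed limma's test. In a fit over all 20 libraries, which takes in the scatter of the other groups, the adjusted p of polr1d against ERM was 0.122. These values are of the named model alone. With the reads of both models summed, citalopram 10 µg/L ran from 0.129 to 3.65. Citalopram 1000 µg/L was then 0.887, 4.46, 6.71 and 1.61 in libraries A to D. Its library C lay above ERM A and B (6.37 and 6.62), while the highest ifosfamide library, at 4.85, stayed below ERM.

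Most other polymerase subunits stood near ERM. Of 21 tested subunits of RNA polymerases I, II and III (8 more were below the filter), 7 were higher and 14 lower, with a median of -0.05. In 2, polr1d and polr1c, all citalopram libraries lay below ERM (9.52%, against 1.13% of all models). In 1 they all lay above (4.76%, against 1.34%). Only polr1d was called, and this list was chosen with its fall known. Polr1c, the partner of polr1d in the assembly of polymerases I and III, was 9.45, 7.83, 9.88 and 10.7 FPKM in ERM and 7.31, 6.22, 6.64 and 7.79 at citalopram 10 µg/L. Its 4 citalopram libraries were all below ERM by a narrow margin, a difference of -0.39 (SE 0.13, adjusted p = 0.999). The gene of the largest polymerase I subunit, polr1a, averaged 8.89 FPKM in ERM and 8.48 at citalopram 10 µg/L. Ribosome biogenesis genes, the processing factors that act on the product of polymerase I, had 51 of 72 members lower with a median of -0.05. In 1 member (1.39%, near the 1.13% of all models) all libraries lay below ERM, the rRNA methyltransferase gene emg1 (-0.37, SE 0.14, adjusted p = 0.999).

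The gene model that rose lies on scaffold KN150521.1 from 15002 to 20896 and has neither an Ensembl identifier nor a description. Its FPKM was 2.48, 2.67, 2.33 and 2.38 in ERM libraries A, B, C and E and 13.6, 15.2, 7.73 and 9.34 in citalopram libraries A to D. The ERM libraries were tightly grouped, and libraries A and B of citalopram were the highest. The mean was 2.47 ± 0.152 (SD, n = 4) in ERM and 11.5 ± 3.52 (SD, n = 4) at citalopram 10 µg/L, a change of 1.80 (SE 0.19, adjusted p = 0.0183). Its level was 9.27 ± 2.94 at the higher citalopram dose, and 9.55 ± 4.48 and 10.16 ± 2.42 at ifosfamide 1 and 100 µg/L. All 12 libraries of those groups lay above all ERM libraries, which the comparisons share. Leaving out 1 library ended the call in 6 of 8 cases, with an adjusted p of up to 0.110, namely ERM A, B or E and citalopram A, B or D.

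**Figure D2:**
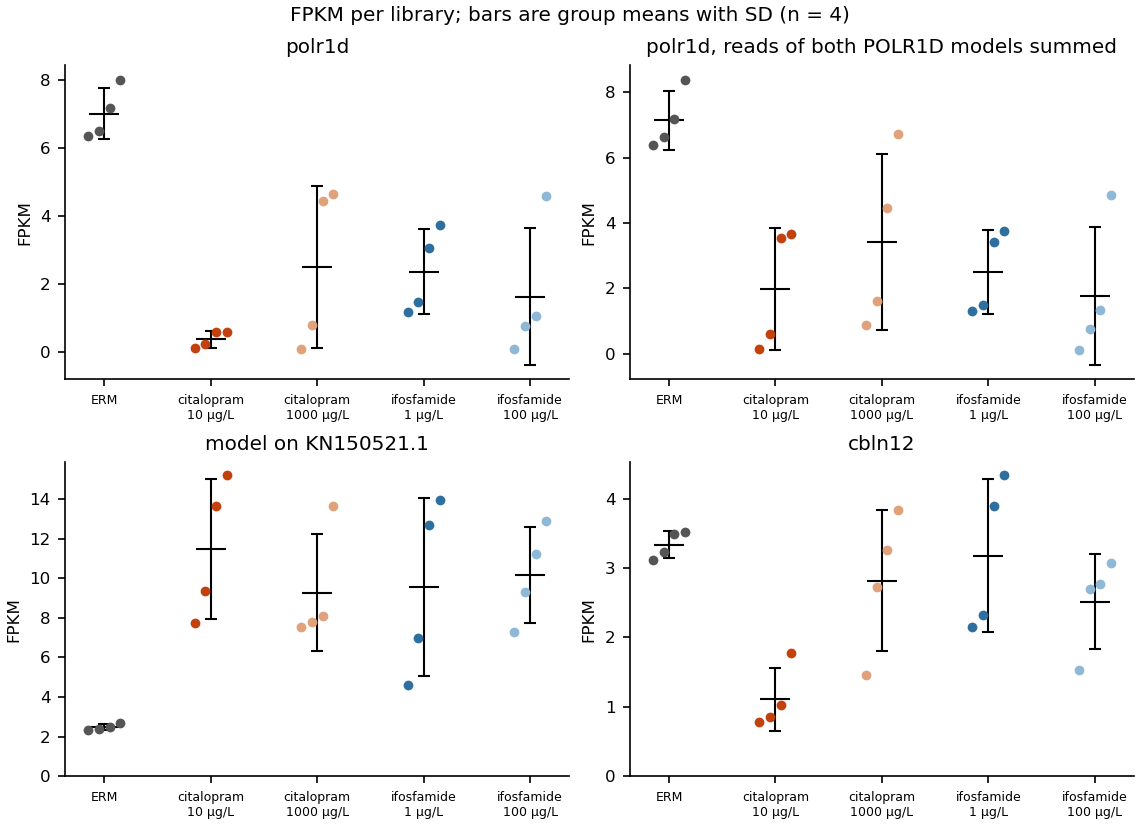
FPKM of polr1d, polr1d with the reads of both POLR1D models summed, the model on scaffold KN150521.1 and cbln12, for each library (points) of the 5 groups on the x axis, with the group mean and SD (bars, n = 4). Citalopram 10 µg/L spans 0.129 to 0.608 FPKM for polr1d and 0.129 to 3.65 with both models summed, and its 4 libraries for cbln12 lie below all ERM libraries.

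Beyond these models, no difference passed the adjusted threshold, and the genes that follow are the ones with the smallest p whose groups did not overlap. Among genes lower at citalopram 10 µg/L, the next was mir199-3a, an 87-base microRNA precursor model on the plus strand of chromosome 20 (14875460 to 14875546). It held 4, 4, 5 and 2 reads in the ERM libraries and 0, 0, 1 and 0 at citalopram 10 µg/L (adjusted p = 0.110). With a mean of 0.233 FPKM at citalopram 10 µg/L, mir199-3a entered the comparison only through its ERM libraries. It passed the adjusted threshold in limma fits over 16 and 20 libraries (adjusted p = 0.0298 and 0.0257) and without citalopram library C (0.0207). Voom on recovered reads gave an adjusted p of 0.880. All 12 libraries of the other drug groups were also below every ERM library for mir199-3a. The means were 0.341 FPKM at citalopram 1000 µg/L and 0.227 and 0.209 at ifosfamide 1 and 100 µg/L, against 0.233 at citalopram 10 µg/L. These libraries were made from poly(A) RNA, so such reads do not measure the mature microRNA, and the model lies within dnm3a on the opposite strand. That gene, dnm3a, which encodes a dynamin of synapses, averaged 1.403 FPKM in ERM and 1.27 at citalopram 10 µg/L.

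Cbln12 encodes a cerebellin, one of a family of secreted proteins related to complement C1q that link the neurons on either side of a synapse. Its FPKM was 3.12, 3.50, 3.23 and 3.52 in ERM and 1.77, 0.774, 1.03 and 0.851 at citalopram 10 µg/L. All 4 citalopram libraries were lower, library A the least, and the difference was -1.07 (SE 0.16, adjusted p = 0.160). The higher citalopram dose averaged 2.82, and ifosfamide 1 and 100 µg/L averaged 3.18 and 2.52. Citalopram 10 µg/L differed from these by -0.84 (SE 0.25), -0.97 (SE 0.22) and -0.74 (SE 0.20), with no difference passing the adjusted threshold. Of 9 cerebellin genes tested, 7 were lower and 2 higher, with a median of -0.16. Cbln12 was the only one whose groups did not overlap (11.1%, against 1.13% of all models). That share counts the gene already singled out, and the list was chosen with earlier results known. Cbln10 averaged 2.84 FPKM in ERM and 1.83 at citalopram 10 µg/L, and another member, cbln1, the most abundant, 14.5 and 12.9.

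Most of the other lower genes differed by smaller amounts. Zpr1, which encodes a zinc-finger protein bound to translation factors and to the SMN complex, was 2.54, 4.14, 2.23 and 3.09 FPKM in ERM and 0.816, 2.08, 1.41 and 1.13 at citalopram 10 µg/L (-0.77, SE 0.20, adjusted p = 0.748). Lsm1, a subunit of the ring that starts mRNA decapping in the cytoplasm, averaged 3.90 FPKM in ERM and 2.41 at citalopram 10 µg/L (-0.52, SE 0.14). Chka, the first enzyme of phosphatidylcholine synthesis, averaged 16.4 FPKM in ERM and 11.6 at citalopram 10 µg/L (-0.47, SE 0.13), and lrpap1, the chaperone of LDL-receptor family proteins, 8.41 and 5.997 (-0.43, SE 0.13). Other genes of this group were iqce, ccdc136b, znf692 and abo, at -0.47 to -0.54, and the adjusted p values of these genes were 0.734 and above.

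Splitting of reads between gene models touched several of these genes. Of 95 genes described by rule, 15 had their symbol, or the gene name in the description, on more than 1 gene model, mostly on alternate contigs. Of the 11 among them whose groups did not overlap, 7 still did not when the reads of all models were summed. Those that came to overlap were irf1b, ccdc136b, rps12 and tpi1b. For chka, 32.7% of the summed reads in ERM and 44.4% at citalopram 10 µg/L lay on the model of an alternate contig, and the ratio of citalopram 10 µg/L to ERM was 0.702 for the named model and 0.848 for the sum. Models with the same symbol need not be 1 gene, and their relation was not tested.

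Among genes higher at citalopram 10 µg/L, the smallest p values belonged to models with only a clone or provisional name. The models zgc:172053 and FP017215.1 averaged 1.03 and 2.56 FPKM in ERM and 8.13 and 14.6 at citalopram 10 µg/L (adjusted p = 0.0719 and 0.0935), and they were chosen after their values were seen. Of genes with a full name, the first was copb1, which encodes a coat subunit of the COPI vesicles that move cargo through the Golgi. Its FPKM was 4.43, 4.99, 4.23 and 2.95 in ERM and 9.68, 6.81, 7.73 and 9.91 at citalopram 10 µg/L. The lowest citalopram library lay above the highest ERM library, and the difference was 0.89 (SE 0.17, adjusted p = 0.448). Grhl3, a transcription factor of the epidermal barrier, was 2.82 to 3.05 in ERM and 4.45 to 6.27 at citalopram 10 µg/L (0.64, SE 0.13, adjusted p = 0.685). Sult5a1, a cytosolic sulfotransferase gene, was 0.391 to 1.70 and 1.75 to 4.46 (1.26, SE 0.26, adjusted p = 0.685). With an ERM mean of 0.836 FPKM, sult5a1 passed the filter only through its citalopram libraries. Rgs2, a brake on G-protein signalling, was 3.101 to 5.55 and 6.71 to 15.9 (1.02, SE 0.24, adjusted p = 0.700). Sult5a1 averaged 4.06 FPKM at citalopram 1000 µg/L and 6.13 and 4.87 at ifosfamide 1 and 100 µg/L. Rgs2 averaged 10.6, 6.81 and 7.53 there, grhl3 3.85, 4.19 and 4.90, and copb1 4.82, 5.64 and 6.525. Of the libraries of those groups, 11, 10, 9 and 7 lay above all ERM libraries for sult5a1, rgs2, grhl3 and copb1. In the same order, 0, 0, 2 and 3 lay below all of them. The ERM libraries are shared.

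A stretch of chromosome 12 was singled out after its values were seen. Between 46.0 and 46.4 Mb (GRCz11) the table holds 14 gene models, of which 9 passed the filter. In 6 of these 9 the citalopram libraries all lay above ERM, and in 0 they all lay below, against 1.34% and 1.13% of all models. These 6 need not be separate genes, as a model without an Ensembl identifier among them spans 46063858 to 46379704 and encloses the others. That model averaged 1.81 FPKM in ERM, 5.08 at citalopram 1000 µg/L and 7.83 and 6.44 at ifosfamide 1 and 100 µg/L. All 6 had means above ERM in each of those groups. The gene model with the largest difference of the whole comparison, si:ch211-226h7.5, lies there, at 1.05, 1.92, 8.06 and 0.854 FPKM in ERM and 21.0, 27.7, 14.4 and 24.7 at citalopram 10 µg/L (2.82, SE 0.44, adjusted p = 0.160). ERM library C was the highest of its group, and without it the adjusted p was 0.00145. Si:ch211-226h7.5 passed in no other alternative. A neighbouring model named zgc:153932 was 4.73, 6.10, 11.1 and 3.06 in ERM and 18.0, 29.7, 13.2 and 15.8 at citalopram 10 µg/L. For si:ch211-226h7.5 the other drug groups averaged 23.2 FPKM at the higher citalopram dose and 23.4 and 24.7 at ifosfamide 1 and 100 µg/L, and the ERM libraries are shared. Neighbours in this stretch have related names, and reads may be split between near-identical copies.

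Genes of the drug's target system showed no difference past the threshold. Slc6a4a encodes the serotonin transporter that citalopram blocks. Its FPKM was 5.11, 6.26, 5.07 and 5.72 in ERM and 5.97, 5.91, 5.49 and 3.41 at citalopram 10 µg/L. Libraries A to C lay within or near the ERM range and library D was below it, a difference of -0.10 with a 95% interval of -0.46 to 0.27. Tph2, the rate-limiting enzyme of serotonin synthesis in raphe neurons, was 1.99, 2.54, 1.54 and 2.77 FPKM in ERM and 1.59, 1.08, 1.93 and 1.76 at citalopram 10 µg/L, with overlapping groups (-0.30, interval -0.69 to 0.08). Summed with a model on an alternate contig, tph2 was at 92.5 to 123.9 normalized reads in ERM and 78.8 to 97.7 at citalopram 10 µg/L, again with overlap. Tph1a, the paralog of the pineal and peripheral tissues, differed by 0.17 (interval -0.18 to 0.53).

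The enzymes after tryptophan hydroxylase were steadier. Ddc, which forms serotonin from its precursor, averaged 4.19 ± 0.334 FPKM in ERM and 3.90 ± 0.196 at citalopram 10 µg/L (SD, n = 4; interval of the difference -0.33 to 0.17). Mao, which breaks serotonin down, averaged 10.3 ± 0.473 and 9.67 ± 0.793 (interval -0.32 to 0.16). Gch1, the first enzyme of the synthesis of the cofactor tetrahydrobiopterin, had the smallest p of the group, at 6.38 to 7.40 in ERM and 3.26 to 6.38 at citalopram 10 µg/L (-0.39, SE 0.17, adjusted p = 0.999). Of the 14 genes of serotonin synthesis, uptake and breakdown that were tested (8 were below the filter), 6 were higher and 8 lower, with a median of -0.07, and no member separated the groups.

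Serotonin receptors were low in whole larvae. Only 5 of 20 receptor genes passed the filter, 1 higher and 4 lower, with a median of -0.08. Htr1aa, the inhibitory receptor of serotonin neurons and their targets, was 5.5, 5.85, 6.4 and 4.81 FPKM in ERM and 4.4, 4.27, 4.22 and 6.11 at citalopram 10 µg/L. Libraries A to C were below ERM and library D was inside its range (-0.22, interval -0.53 to 0.10). Htr1b differed by 0.10 from ERM (interval -0.28 to 0.48). Below the filter stood the second transporter gene slc6a4b, the vesicle transporter gene slc18a2, tph1b, htr1ab and htr2aa, with means of 0.101 to 0.920 FPKM over the 8 libraries.

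**Figure D3:**
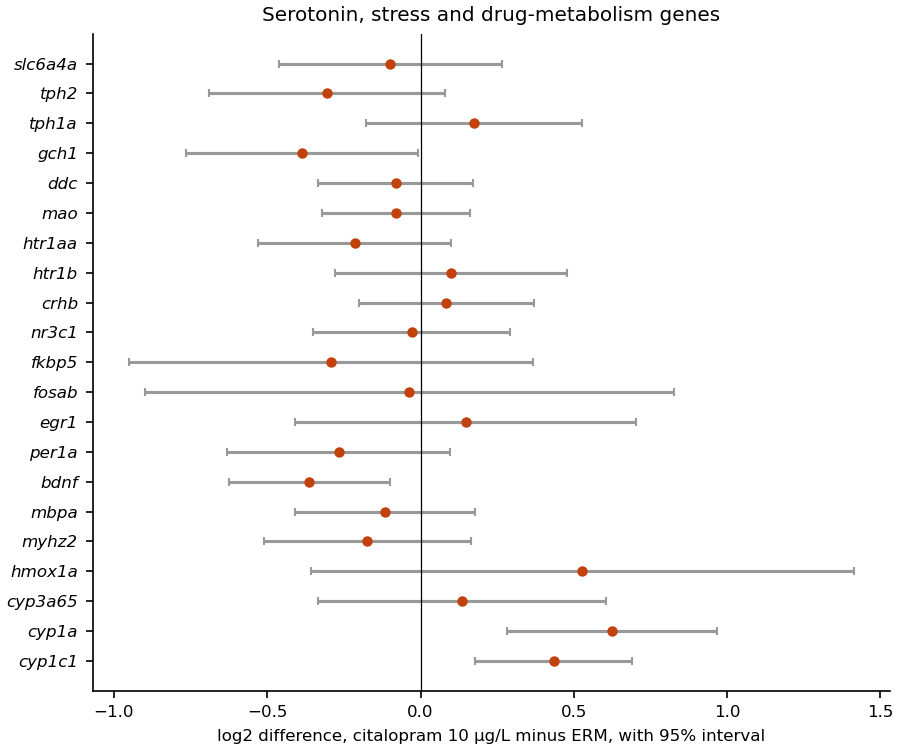
Log2(FPKM + 1) difference of citalopram 10 µg/L minus ERM on the x axis for 21 genes, with 95% intervals from the limma fit (points and bars, 4 libraries per group). The interval of slc6a4a runs from -0.46 to 0.27, and those of cyp1a, cyp1c1, bdnf and gch1 exclude 0 before adjustment.

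Genes of the stress axis were near ERM, and immediate early genes leaned higher by a small amount. Crhb, the corticotropin-releasing hormone gene, averaged 6.24 ± 0.427 FPKM in ERM and 6.70 ± 0.970 at citalopram 10 µg/L, and nr3c1, the glucocorticoid receptor gene, 2.47 ± 0.243 and 2.42 ± 0.519 (SD, n = 4). Fkbp5, a glucocorticoid-induced chaperone gene, varied widely, from 98.2 to 198 in ERM and from 64.5 to 162 at citalopram 10 µg/L. The 24 tested genes of the stress axis and glucocorticoid response had a median of -0.02. Of 40 immediate early genes, 33 were higher and 7 lower, with a median of 0.15, against 49.7% of all models higher and a median of -0.00. The list medians of single libraries overlapped, at -0.22 to 0.11 in ERM and -0.01 to 0.30 at citalopram 10 µg/L. Only socs3b lay above ERM in all libraries (2.5%, against 1.34% of all models) and only bdnf below (2.5%, against 1.13%). Bdnf, a neurotrophin gene induced by activity, was 11.2, 10.19, 9.44 and 9.86 FPKM in ERM and 8.19, 6.60, 8.51 and 7.53 at citalopram 10 µg/L (-0.36, SE 0.12, adjusted p = 0.999). Fosab was 15.2 to 61.2 in ERM, where library E was high, and 17.0 to 32.1 at citalopram 10 µg/L.

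Neuropeptide and pituitary hormone genes were more often lower, 30 of 44, with a median of -0.10. In 2 (4.5%, against 1.13% of all models) all citalopram libraries lay below ERM. The list medians of single libraries overlapped, at -0.03 to 0.05 in ERM and -0.25 to -0.01 at citalopram 10 µg/L. Chga, which encodes the granin of dense-core vesicles, was 24.98, 23.9, 28.1 and 25.8 FPKM in ERM and 19.3, 18.9, 22.1 and 22.7 at citalopram 10 µg/L, with all citalopram libraries lower (-0.30, SE 0.11, adjusted p = 0.999). A PACAP precursor gene, adcyap1b, averaged 26.7 and 21.2 and did not overlap either. Of 28 neuron markers, 21 were lower with a median of -0.07, and the list medians of single libraries ran from -0.09 to 0.15 in ERM and from -0.29 to 0.09 at citalopram 10 µg/L. Glutamate and GABA receptor channels (40 tested) and synaptic vesicle release genes (42 tested) had medians of -0.07 and -0.03, with 0 members of either list separated between the groups. Stmn1b, a microtubule regulator of growing neurons, was 205 to 264 FPKM in ERM and 152 to 214 at citalopram 10 µg/L. Clock genes had a median of -0.03 over 40 members, with per1a at 1.36 FPKM in ERM and 0.975 at citalopram 10 µg/L. Mbpa, the myelin basic protein gene, averaged 49.7 and 46.2.

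Genes listed as targets of the aryl hydrocarbon receptor, a sensor of planar aromatic chemicals that switches on CYP1 enzymes, leaned higher at citalopram 10 µg/L. Cyp1a, the enzyme gene most used to read this receptor in fish, was 23.0, 20.2, 22.8 and 20.5 FPKM in ERM and 25.9, 31.0, 39.4 and 41.3 at citalopram 10 µg/L. All citalopram libraries were above ERM, with a mean of 21.6 ± 1.46 against 34.4 ± 7.21 (SD, n = 4), and the difference of 0.62 (SE 0.15) did not pass (adjusted p = 0.734). Cyp1c1 was 2.71, 3.35, 3.12 and 3.25 in ERM and 4.60, 4.38, 4.38 and 4.80 at citalopram 10 µg/L (0.43, SE 0.12, adjusted p = 0.757). Another CYP1 gene, cyp1c2, averaged 1.13 in ERM and 1.87 at citalopram 10 µg/L. Of 11 members of this list tested, 8 were higher with a median of 0.20, and 3, these CYP1 genes, separated from ERM, which is 27.3% against 1.34% of all models. The members cyp1d1, tiparp and arnt2 stood within 0.03 of ERM on the log2 scale. Whether each member is a target of the receptor in larvae was not tested. None of the 11 was called.

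For cyp1a, the ifosfamide groups were lower. Cyp1a was 27.5 to 56.2 FPKM at the higher citalopram dose, and ifosfamide gave 18.8 to 22.7 at 1 µg/L and 16.5 to 24.9 at 100 µg/L, so that the citalopram libraries of both doses lay above every ifosfamide library. Set directly against citalopram 10 µg/L, cyp1a differed by 0.63 (SE 0.16) from ifosfamide 1 µg/L, by 0.68 (SE 0.18) from ifosfamide 100 µg/L and by -0.05 (SE 0.27) from citalopram 1000 µg/L. Cyp1c1 was 3.04 to 9.34 FPKM at the higher citalopram dose, 2.39 to 4.56 at ifosfamide 1 µg/L, which overlaps citalopram 10 µg/L, and 2.17 to 2.97 at ifosfamide 100 µg/L. It differed by 0.32 (SE 0.16) from ifosfamide 1 µg/L and by 0.64 (SE 0.13) from ifosfamide 100 µg/L. The list of genes taken as receptor targets did not follow cyp1a, with a median against the shared ERM libraries of 0.0020 at the higher citalopram dose and 0.096 and 0.11 at ifosfamide 1 and 100 µg/L. The adjusted p values of these differences were 0.319 and above.

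Other drug-metabolism genes did not move together. The 59 cytochrome P450 genes tested had a median of -0.00, with 29 higher and 30 lower. In 5 (8.5%, against 1.34% of all models) all citalopram libraries lay above ERM, and these were cyp1a, cyp1c1, cyp1c2, cyp2y3 and cyp2k21. Cyp3a65, the main intestinal and liver CYP3 gene of zebrafish, was 638 to 843 FPKM in ERM and 597 to 1168 at citalopram 10 µg/L (0.13, interval -0.33 to 0.60). Conjugating enzymes (42 tested) had a median of -0.06, and genes of Nrf2 and redox defence (49 tested) 0.01. Hmox1a, the haem-degrading enzyme gene, was 5.92 to 13.1 FPKM in ERM and 5.06 to 26.5 at citalopram 10 µg/L, where library B was highest.

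Immune genes leaned higher at citalopram 10 µg/L. In whole larvae, more immune cells and more RNA per cell cannot be told apart. Of 20 immunoproteasome and antigen-presentation genes tested, 16 were higher with a median of 0.27, and 4 (20%, against 1.34% of all models) lay above ERM in all libraries. Against the same ERM libraries, the list median was 0.31 at citalopram 1000 µg/L and 0.26 and 0.33 at ifosfamide 1 and 100 µg/L. Tapbp.1, a chaperone of MHC class I loading, was 3.67, 2.08, 3.96 and 2.93 FPKM in ERM and 5.402, 7.69, 5.11 and 7.23 at citalopram 10 µg/L (0.83, SE 0.18, adjusted p = 0.691). Psmb8a, an immunoproteasome subunit gene, was 0.383, 0.526, 0.882 and 0.350 and then 1.79, 1.27, 2.25 and 1.21 (0.77, SE 0.18, adjusted p = 0.700). Both genes separated without overlap, and psmb8a is counted among the 4. It held 7 to 20 reads per ERM library. Its ERM mean of 0.535 FPKM lay under the filter, which it passed only through its citalopram libraries.

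Interferon-response genes (24 models tested, 30 below the filter) had 19 higher and 5 lower with a median of 0.19, and 5 (20.8%, against 1.34% of all models) above ERM in all libraries. Among these 5 is irf1b, whose groups overlap once its models are summed. The list medians of single libraries met, at -0.17 to 0.072 in ERM and 0.071 to 0.39 at citalopram 10 µg/L. The list median against the shared ERM libraries was 0.093 at citalopram 1000 µg/L and 0.067 and 0.074 at ifosfamide 1 and 100 µg/L. Mxc, an Mx antiviral GTPase gene, was 0.472, 0.986, 1.32 and 0.999 FPKM in ERM and 2.35, 3.13, 1.80 and 2.16 at citalopram 10 µg/L (0.79, SE 0.18, adjusted p = 0.700). With an ERM mean of 0.944 FPKM, mxc passed the filter only through its citalopram libraries, and it is counted among the 5. Mxc averaged 2.31 FPKM at citalopram 1000 µg/L and 2.40 and 2.73 at ifosfamide 1 and 100 µg/L. Of the libraries of those groups, 10 lay above all ERM libraries and 0 below. A model named irf1b, an interferon regulatory factor, was 2.63 to 3.06 and 3.62 to 6.87, while a more abundant model of the same symbol averaged 38.9 and 43.3. Usual readouts of an interferon response had overlapping groups. In ERM and citalopram 10 µg/L, isg15 averaged 5.51 and 7.54 FPKM, and rsad2 averaged 1.91 and 1.36.

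Of 43 tested macrophage and neutrophil genes, 35 were higher with a median of 0.20, and 3 (6.98%, against 1.34% of all models) lay above ERM in all libraries. The list medians of single libraries overlapped, at -0.11 to 0.09 in ERM and 0.05 to 0.32 at citalopram 10 µg/L. This list's median against the shared ERM libraries was 0.26 at citalopram 1000 µg/L and 0.086 and 0.052 at ifosfamide 1 and 100 µg/L. Mpeg1.2, which encodes a pore-forming perforin of macrophages, was 5.71, 7.52, 18.8 and 5.41 FPKM in ERM and 20.4, 33.0, 20.6 and 25.9 at citalopram 10 µg/L. ERM library C was close to the lowest citalopram libraries, and the difference was 1.47 (SE 0.32, adjusted p = 0.691). Without ERM library C it was 1.83 with an adjusted p of 0.0259. Of 22 alternatives, this was the only 1 in which mpeg1.2 passed. Grn2, a granulin gene, was 5.38 to 13.7 and 15.0 to 23.1 (1.11, SE 0.25, adjusted p = 0.691). Lysosome genes as a list (58 tested) had a median of 0.02. In all libraries 1 member (1.72%, against 1.34% of all models) lay above ERM and 2 (3.45%, against 1.13%) below. The member above was the hexosaminidase gene hexb, at 23.5 to 32.2 and 35.0 to 42.4 FPKM. The defining macrophage marker mpeg1.1 was 0.185 to 0.461 FPKM in ERM and 0.298 to 0.553 at citalopram 10 µg/L, the neutrophil marker lyz 0 to 0.672 and 0 to 3.09, and coro1a was at 0 in all 8. The part of cell numbers in these levels was not tested. Lymphocyte genes (10 tested) had a median of 0.17 with 0 separated, and chemokine and interleukin genes (55 tested) 0.07, with il22ra2, a decoy receptor of interleukin 22, at 0.592 and 1.44 FPKM. Il22ra2, too, passed the filter only through its citalopram libraries. Mpeg1.2 averaged 26.7 FPKM at the higher citalopram dose and 32.7 and 28.2 at ifosfamide 1 and 100 µg/L. Tapbp.1 averaged 5.17, 4.64 and 5.12 in those groups against 6.36 at citalopram 10 µg/L, and no direct difference passed.

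**Figure D4:**
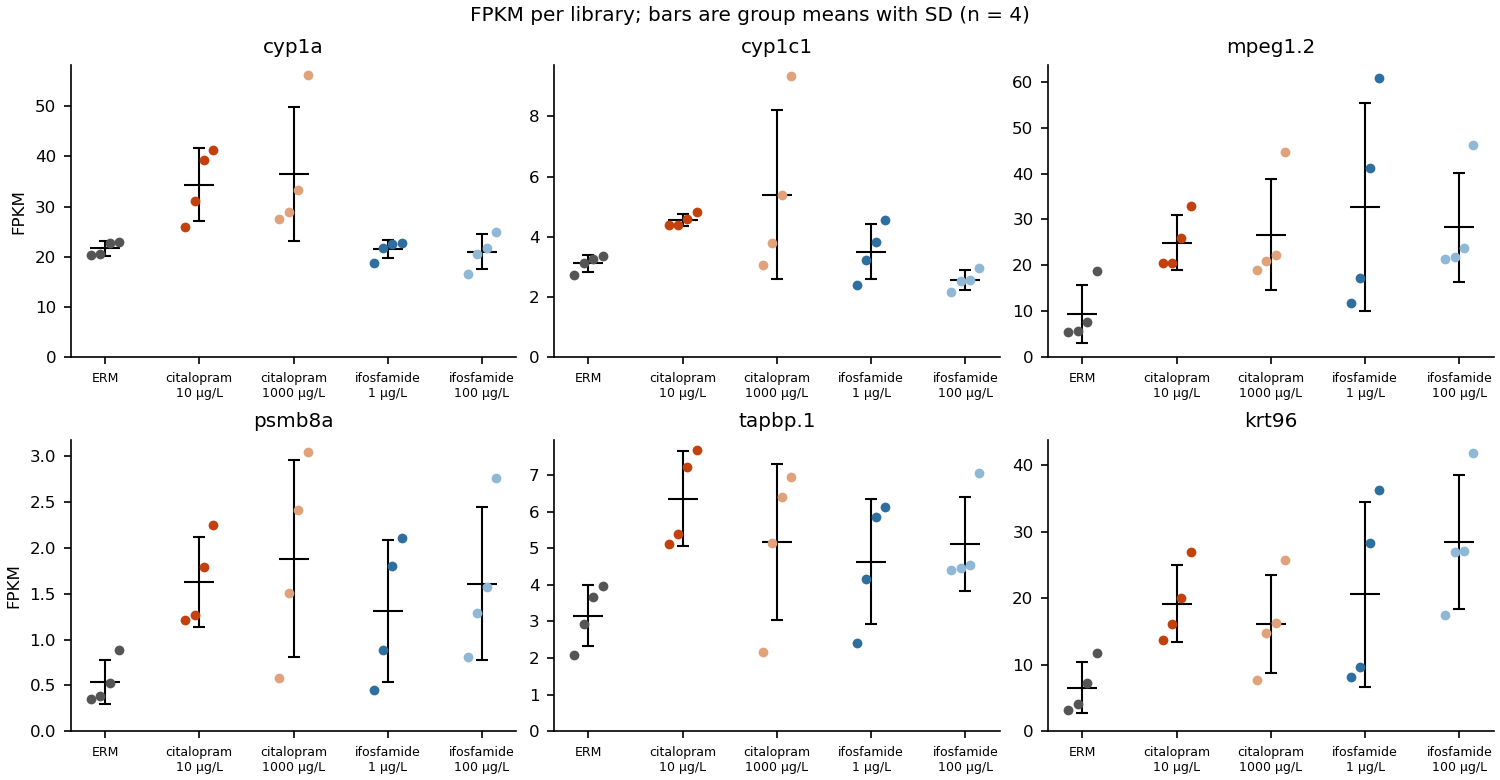
FPKM of 6 genes in each library (points) of the 5 groups on the x axis, with group mean and SD (bars, n = 4). Cyp1a is 25.9 to 41.3 at citalopram 10 µg/L and at most 24.9 in the ifosfamide groups, while mpeg1.2 averages 24.97 at citalopram 10 µg/L and 26.7 to 32.7 in the other drug groups.

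Genes of the outer skin went both ways, with more of them higher. Of 51 keratin, transglutaminase and epidermis genes, 36 were higher with a median of 0.13, and 6 (11.8%, against 1.34% of all models) lay above ERM in all libraries. The list medians of single libraries overlapped, at -0.20 to 0.135 in ERM and -0.03 to 0.24 at citalopram 10 µg/L. The abundant keratin genes krt4 and cyt1 were lower with overlapping groups, at 1916 ± 176 and 1408 ± 197 FPKM in ERM and 1517 ± 202 and 1224 ± 413 at citalopram 10 µg/L (SD, n = 4), and the lowest member, cyt1l, was at -0.57 (SE 0.22, adjusted p = 0.999). Krt96, an epidermal keratin gene, was 3.14, 7.27, 11.7 and 4.12 FPKM in ERM and 20.04, 26.9, 16.1 and 13.7 at citalopram 10 µg/L (1.51, SE 0.33, adjusted p = 0.685). Here too ERM library C was the highest of its group. Agr1, a secretory-cell chaperone gene of the disulfide isomerase family, was 19.7 to 22.6 and 23.8 to 34.2, and krt17 averaged 488 and 644. Krt96 averaged 16.1 FPKM at the higher citalopram dose and 20.6 and 28.4 at ifosfamide 1 and 100 µg/L. Connective-tissue and YAP-target genes (30 tested) had a median of 0.13, and ctgfb, a matricellular growth factor gene, was tightly grouped, at 3.196, 3.14, 2.85 and 3.39 FPKM in ERM and 4.58, 4.94, 4.83 and 5.02 at citalopram 10 µg/L (0.50, SE 0.11, adjusted p = 0.691). Ctgfb was lower in the ifosfamide groups, at 3.49 and 3.31.

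Cell-division genes were higher by a small amount. Of 32 DNA replication and mitosis genes tested (40 were below the filter), 28 were higher with a median of 0.14. Aurkb, the kinase of chromosome segregation, was 1.18, 1.03, 1.43 and 1.62 FPKM in ERM and 1.72, 2.65, 1.70 and 2.12 at citalopram 10 µg/L (0.39, SE 0.16, adjusted p = 0.999). It was the only member without overlap (3.1%, against 1.34% of all models). Library B had the highest median of the list (0.35), against -0.02 to 0.13 in the other citalopram libraries and -0.11 to 0.13 in ERM. Targets of p53 (32 tested) had a median of -0.01.

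Genes of amino acid breakdown and of carbohydrate metabolism leaned lower, while liver plasma proteins (57 tested, 24 higher and 33 lower) had a median of -0.02. Of 41 genes of amino acid breakdown, 30 were lower with a median of -0.12, and 2 (4.88%, against 1.13% of all models) lay below ERM in all libraries. Tdo2b, the liver enzyme that opens the tryptophan ring and so competes with serotonin synthesis for its precursor, was 49.2, 53.5, 50.2 and 55.7 FPKM in ERM and 27.4, 37.8, 48.8 and 34.3 at citalopram 10 µg/L (-0.51, SE 0.16, adjusted p = 0.999). It averaged 42.3 FPKM at citalopram 1000 µg/L and 38.7 and 38.4 at ifosfamide 1 and 100 µg/L. In those groups, 11 libraries lay below all ERM libraries. Cbsa, the first enzyme of the route from homocysteine to cysteine, averaged 6.71 and 4.58. Library A of citalopram carried the largest part of the list's shift, with a list median of -0.42 against -0.08 to 0.06 in libraries B to D. Set against the shared ERM libraries, the list median was -0.09 at citalopram 1000 µg/L and -0.22 and -0.34 at ifosfamide 1 and 100 µg/L.

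Of 54 genes of glycolysis, gluconeogenesis and glycogen, 34 were lower with a median of -0.07, and 5 (9.26%) lay below ERM in all libraries against 1.13% of all models. The list median against the shared ERM libraries was 0.014 at citalopram 1000 µg/L and -0.19 and -0.21 at ifosfamide 1 and 100 µg/L. In single libraries it overlapped, at -0.05 to 0.06 in ERM and -0.22 to 0.05 at citalopram 10 µg/L. G6pca.2, the glucose-6-phosphatase that releases glucose, was 73.1, 74.2, 77.9 and 92.7 FPKM in ERM and 54.2, 52.6, 60.1 and 72.8 at citalopram 10 µg/L (-0.41, SE 0.14, adjusted p = 0.999). In the other drug groups, 11 libraries lay below all ERM libraries for g6pca.2. Tpi1b, triose-phosphate isomerase, averaged 94.1 and 69.6, and its groups overlapped once the reads of a model on an alternate contig were added. The others were pfkfb4a, ldha and pfkpb. Apobb.1, the structural protein gene of yolk and liver lipoproteins, was 136 to 170 in ERM and 115 to 130 at citalopram 10 µg/L (-0.36, SE 0.12). Fatty acid oxidation genes were lower in 28 of 38 with a median of -0.07 and 0 separated, and cholesterol synthesis genes (29 tested) had a median of 0.03, with the LDL receptor gene ldlrb at 6.53 ± 1.27 and 10.6 ± 2.03 FPKM.

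Library C of citalopram 10 µg/L was the highest of its group in several abundant gene lists. Cytosolic ribosomal protein genes were higher in 61 of 75 members with a median of 0.08, but the list median was 0.72 in library C and -0.25 to 0.07 in the other citalopram libraries. Rps12 was 102, 120, 192 and 94.97 FPKM in citalopram libraries A to D and 57.5 to 93.0 in ERM. Nuclear oxidative phosphorylation genes had a list median of 0.50 in library C and -0.22 to -0.07 in the others, where the median over the comparison was 0.02. Lens crystallins stood at 0.80 in library C, -0.90 in library D and -0.08 over the comparison. The library's length slope of -0.093 moves with these short and abundant transcripts, and its part in their levels was not tested. ERM library B was low in opsin and phototransduction genes (list median -0.76) and in crystallins (-0.63).

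**Figure D5:**
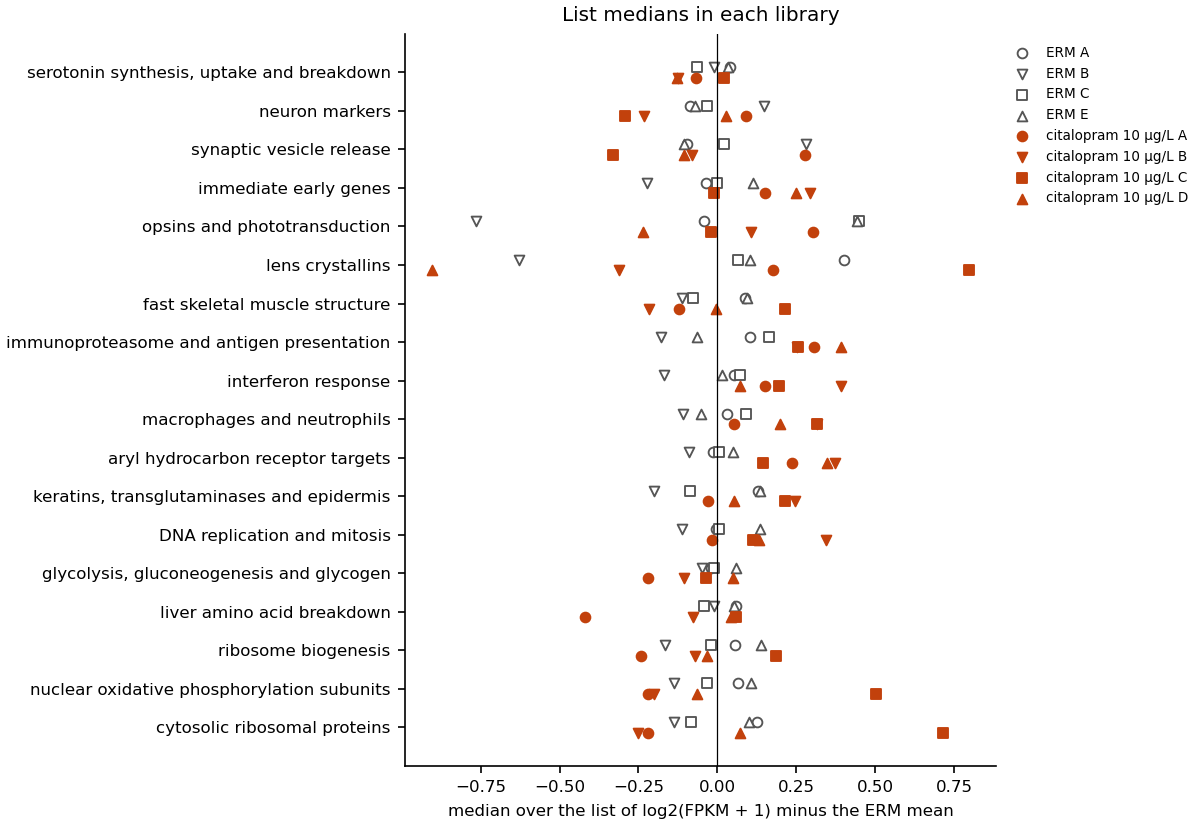
Median over each gene list of log2(FPKM + 1) minus the mean of ERM, on the x axis, in each of the 4 ERM libraries (open symbols) and the 4 citalopram 10 µg/L libraries (filled symbols), with a symbol shape for each library. Library C of citalopram 10 µg/L stands at 0.72 for cytosolic ribosomal proteins and 0.50 for oxidative phosphorylation, while aryl hydrocarbon receptor targets are at 0.14 to 0.37 in all 4 citalopram libraries.

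Muscle genes were close to ERM at citalopram 10 µg/L. Of 82 fast skeletal muscle genes, 48 were lower with a median of -0.04, and 1 (1.22%, near the 1.13% of all models) lay below ERM in all libraries. That member was the M-band gene myom1a (53.2 ± 1.93 FPKM in ERM and 43.3 ± 6.16 at citalopram 10 µg/L, SD, n = 4). The fast myosin heavy chain gene myhz2 averaged 1010.4 ± 76.7 and 896 ± 75.5, and 493 ± 37.5 at citalopram 1000 µg/L. The difference between the citalopram doses was 0.86 (SE 0.26) for myhz2 and 0.63 (SE 0.19) for myom1a, and neither passed limma's adjusted threshold. Slow and cardiac muscle genes (19 and 21 tested) had medians of -0.12 and -0.11 with 0 separated in either.

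Hspb1, which encodes a small heat shock protein of muscle and other tissues, was 4.98 to 6.23 FPKM in ERM, 5.62 to 9.43 at citalopram 10 µg/L and 4.96 to 9.32 at citalopram 1000 µg/L. It was 2.60 to 3.65 at ifosfamide 1 µg/L, so the citalopram 10 µg/L libraries lay above all of those (1.00, SE 0.17, adjusted p = 0.319). Inducible heat shock genes as a list had a median of -0.01, with 16 of 32 higher. Endoplasmic reticulum stress genes were higher in 26 of 35 with a median of 0.10, and hspa5, the main chaperone of that compartment, was 36.9 to 48.1 in ERM and 46.2 to 62.3 at citalopram 10 µg/L.

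Set directly against the other drug groups over the same 19458 models, citalopram 10 µg/L had 0 called models (0%) against citalopram 1000 µg/L, 0 (0%) against ifosfamide 1 µg/L and 0 (0%) against ifosfamide 100 µg/L in limma's test. Before adjustment, 313, 2719 and 1099 models had a p under 0.05, and voom on recovered reads gave 0 called and 262, 2844 and 1166. The smallest adjusted p values were 0.128, 0.319 and 0.0557. The count against ifosfamide 1 µg/L was above the 973 set by chance if no gene differed, with 1390 higher and 1329 lower, while the count against citalopram 1000 µg/L was below it.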

How the data were processed

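Poly(A) RNA of whole larvae was extracted with TRIzol and sequenced as strand-specific libraries, per the labels' protocols. The build is GRCz11, and the tools listed are DESeq2, featureCounts, fastp and HISAT2, per the submitters' processing notes, which give no version or role. The authors deposited FPKM for 38718 gene models. Whole reads were recovered from gene length and the smallest step of each library, at a tolerance of 0.01 read that 100% of the non-zero values met, and their sum gave the depth. The strand setting of the counting is not given in the sources used here.

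The 4 libraries of citalopram 10 µg/L and the 4 of ERM were compared on log2(FPKM + 1) by limma (3.58.1, under R 4.3.3). The fit let the prior spread follow expression and left 6 residual degrees of freedom. This scale understates changes of low genes. Tests were two-sided and Benjamini-Hochberg adjusted over 19458 models with mean FPKM of at least 1. Drug groups were compared with each other in the same way. Alternatives were other pseudocounts, filters and scalings, voom on recovered reads, larger fits, array weights, a robust spread, a replicate block and each library left out. Summing both POLR1D models was added after seeing the data. The fit was tested on simulated data. Figures used matplotlib 3.10.9 under Python 3.11.15.

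The comparison, the lists and the rule for named genes were chosen with earlier results of these data known. The rule took every called model, in each direction the 12 genes with the smallest p among those whose groups did not overlap, up to 2 members of each of 56 lists at an unadjusted p under 0.05, and 25 fixed genes. Other genes, and the stretch of chromosome 12, were chosen after their values were seen. The list of oxidative phosphorylation subunits was corrected after the data were seen, as it had caught assembly factors. Lists have no test and are given by counts and medians. Gene names and positions are those of the deposited table. 1 gene that the rule selected is not reported here.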

Additional observations from a re-analysis of the deposited data

Results flagged for a closer look

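Among the groups of 4 libraries behind the 95 genes described by rule, 4 of 190 (2.11%) held a library set apart by Dixon's ratio, where chance flags about 1 in 20. Mir199-3a was 0.932 FPKM in citalopram 10 µg/L library C, a single read, and 0 in the other libraries of that dose. Lsm1 was 1.96 FPKM in citalopram 10 µg/L library B and 2.56 in the other libraries of that dose. Htr1aa was 6.11 FPKM in library D of citalopram 10 µg/L against 4.22 to 4.4 in A to C. Slc6a4a was 3.41 FPKM in the same library D against 5.49 to 5.97 in A to C, and without library D its difference from ERM was 0.057 in place of -0.10. All of these lie in citalopram 10 µg/L libraries, and library D holds 2 of them, both serotonin genes.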

How the results depend on the processing

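The count of 2 called models against ERM became 5 with 16 libraries in the fit, 4 with array weights, and 1 with Ensembl identifiers only, mean FPKM of at least 5, no filter, scaling to total reads or both POLR1D models summed. It ran from 1 to 7 with 1 library left out, 7 without ERM C and 5 without citalopram 10 µg/L C. Polr1d passed in 19 of 21 alternatives and lost its call with all 20 libraries in the fit (adjusted p = 0.122) and with both POLR1D models summed (-1.71, adjusted p = 0.735). The model on scaffold KN150521.1 passed in 12 of 21. Replicate letters did not pair the libraries (correlations of deviations of -0.263, 0.0628 and -0.0044 for A, B and C). Letter D occurs only at citalopram 10 µg/L and letter E only in ERM. The replicate block therefore compared libraries A, B and C alone, and left citalopram D and ERM E out of the difference. That fit gave 2 calls, 1 of them shared, and turned fkbp5 to 0.076, cyp3a65 to -0.036, slc6a4a to 0.072 and fosab to 0.26. Array weights turned nr3c1 to 0.073. With 1 library left out, the difference spanned -0.045 to 0.28 for cyp3a65, -0.16 to 0.057 for slc6a4a, -0.12 to 0.056 for nr3c1 and -0.25 to 0.40 for fosab. The 0 called models against other drug groups became, against citalopram 1000 µg/L, 23 with array weights, 1 with no filter and 0 to 1 with 1 library left out. Against ifosfamide 1 µg/L there was 1 with no filter and 0 to 1 with 1 library left out. Against ifosfamide 100 µg/L there were 2 with array weights, 1 each with Ensembl identifiers only, no filter, pseudocounts of 0.1 and 0.5 and quantile normalization, and 0 to 1 with 1 library left out. The causes were not tested. With 4 beakers a side, intervals of about 0.3 to 0.7 log2 units for the serotonin genes bound what could be seen.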
